A study of Danio rerio with 24 samples.

Results

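The ATP-binding cassette (ABC) transporter genes of zebrafish were followed through the brain and whole kidney marrow of fish whose heart muscle cells had been ablated. Members were taken by symbol: abc, 1 of the subfamily letters a to h, then a digit. Of the 14781 genes in the count files, 29 met this rule, in 7 subfamilies: 4 of subfamily A, 5 of B, 5 of C, 4 of D, 1 of E, 2 of F and 8 of G. All fish were adult EK strain males aged 4 to 12 months, and tissue was taken at 7 days. The labels describe the ablation as a bath of 17 h in 0.5 to 0.7 µM tamoxifen. In the ablation experiment the genotype was wild type throughout, with 2 libraries each of ablated brain, uninjured brain, ablated kidney marrow and uninjured kidney marrow. In the cebpd experiment all 6 libraries were from ablated brain, 3 of wild type and 3 of cebpd homozygous knockout fish, with no uninjured knockout library to set beside them. The construct or promoter behind the ablation, the cebpd allele, and whether uninjured fish went through the bath: these remain not given in the sources used here.

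ABC proteins use the energy of ATP to move substrates across membranes. Subfamilies A and G are known in mammals for lipid and sterol export, B for peptide, drug, haem and iron transport, and C for organic anion export and for the sulphonylurea receptors of potassium channels. Most subfamily D proteins carry fatty acids into peroxisomes, while the proteins of E and F have no membrane domain and act in translation. At the blood-brain barrier and in kidney tubules of mammals, ABCB1, ABCG2 and ABCC4 expel drugs and metabolites.

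Libraries of the ablation experiment held 14364306 to 20469655 reads in genes and those of the cebpd experiment 4377028 to 6280007, and Spearman correlations across genes between replicates ran from 0.9899 to 0.9967. Levels are counts scaled to a common library size (CPM) on TMM-scaled library sizes, scaled over the libraries of each experiment. They are not divided by transcript length, so a level is compared for 1 gene at a time. Fold changes are on the log2 scale, given ± 1 SE, from edgeR's quasi-likelihood test, with Benjamini-Hochberg adjustment over all genes tested and a threshold of 0.05. The labels do not say that replicates were separate animals, so p-values measure only the spread between these libraries. Neuronal markers identified the brain samples, with 11 of 11 present and a summed level of 12183 to 12238 CPM in uninjured brain against 115 to 121 CPM in uninjured marrow. The kidney was frozen whole, and its libraries also held 13 of 13 nephron markers at a summed 10251 to 11279.9 CPM.

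Nearly all members were read in both tissues, and 4 of subfamily G were at the edge of detection. abcg2b had 0 to 9 reads per library, abcg5 0 to 2, abcg2d 0 to 24 and abcg8 1 to 59. Of the 29 members, 26 passed the low-count filter in the brain fit, 26 in the marrow fit, 24 in the cebpd fit and 27 in each fit that compared the tissues. abcg2b and abcg5 passed in none and were not tested.

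**Figure D1:**
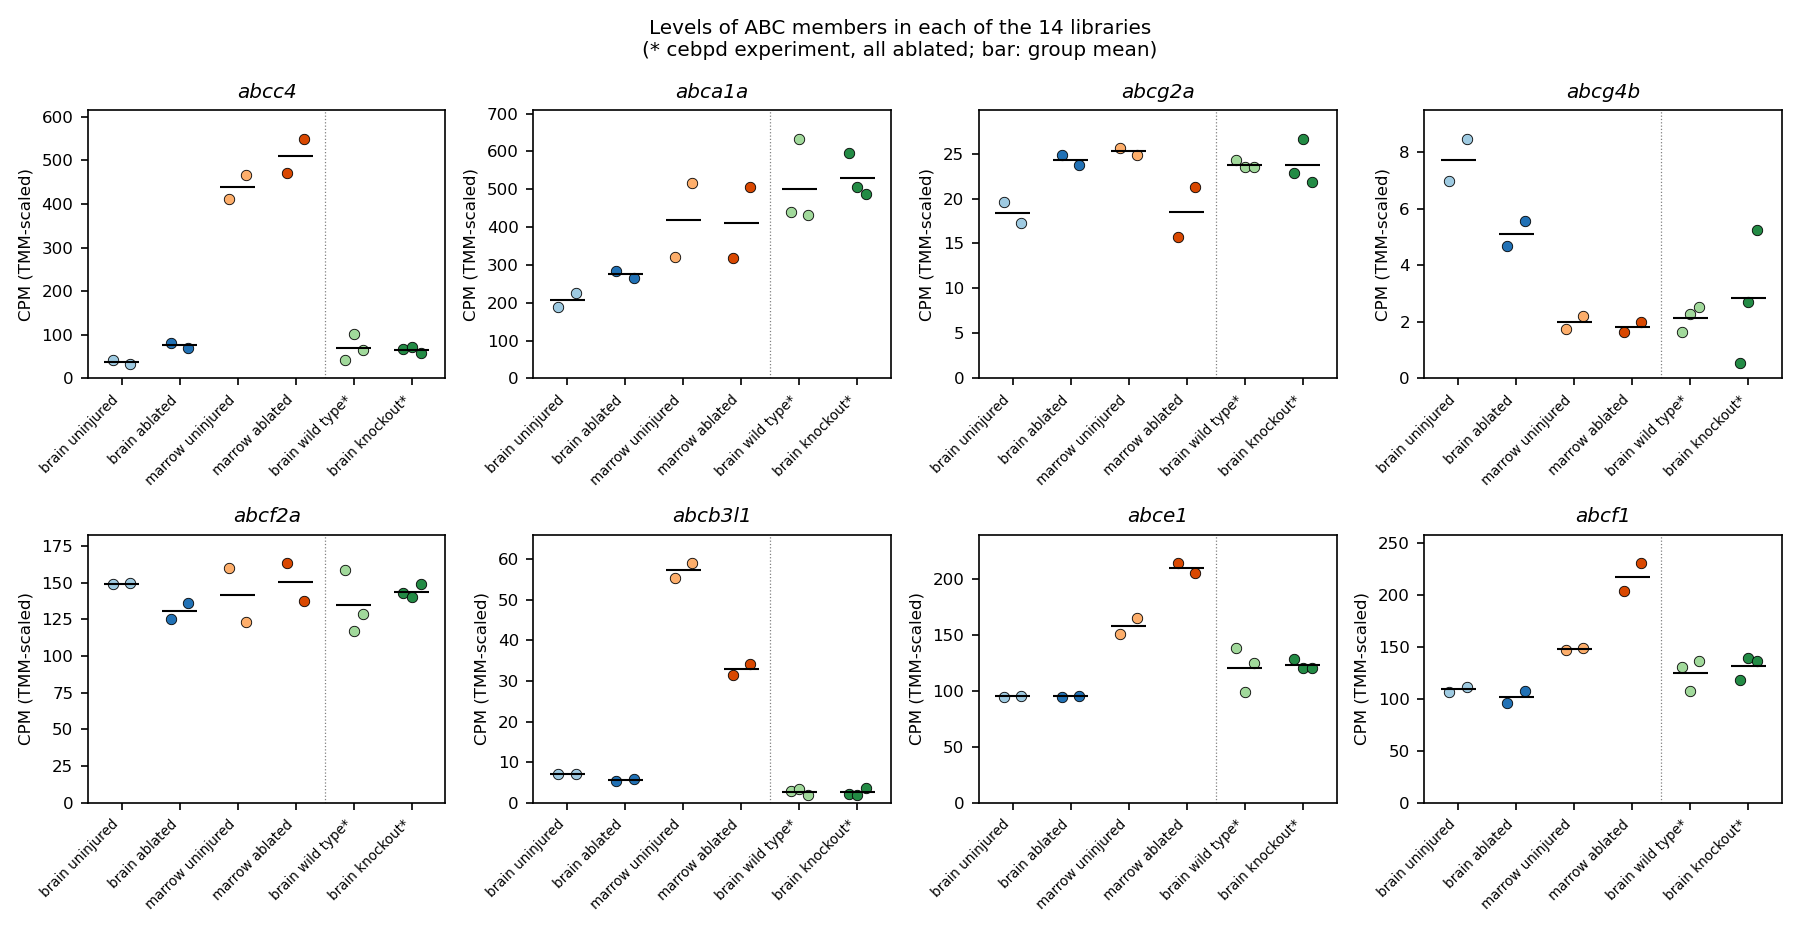
Level (CPM on TMM-scaled library sizes) of 8 ABC members in each of the 14 libraries. Points are libraries, horizontal bars are group means, and the dotted line separates the ablation experiment from the cebpd experiment, whose 6 libraries are all from ablated brain and are scaled separately. The abcc4 points of ablated brain lie above those of uninjured brain, and the abcb3l1 points of marrow lie far above those of brain.

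The uninjured tissues differed in most members, as they did in most genes. Of the 27 members tested, 9 were higher in brain and 14 were higher in marrow. Of all 12936 genes tested 38.9% were higher in brain and 39.2% in marrow, 78.1% in either direction, and 79.6% had an unadjusted p under 0.05. Libraries of the tissues did not overlap for 10 members in the higher and 16 in the lower direction of brain, against 45.5% and 44.9% of all genes and 90.4% in either direction. In subfamily C the sulphonylurea receptor genes abcc8 and abcc9 were higher in brain, and the organic anion exporter genes lay on both sides, abcc5 higher in brain and abcc2 and abcc4 higher in marrow. Neuronal markers were 11 of 11 higher in brain and nephron markers 13 of 13 higher in marrow, and their part in the differences between members was not tested.

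abcc8 encodes SUR1, the regulatory subunit of ATP-sensitive potassium channels in neurons and endocrine cells. It stood at 101 and 104 CPM in brain and at 4.07 and 13.1 CPM in marrow, a log2 difference of 3.58 ± 0.47 (n = 2 per group, edgeR adjusted p = 0.000788). The brain libraries lay close together and the marrow libraries were more than 3-fold apart. abcc9 encodes SUR2, which forms such channels in muscle and in mural cells of vessels, and stood at 51.8 and 52.8 CPM in brain and 19.3 and 17.2 CPM in marrow (1.51 ± 0.11, edgeR adjusted p = 6.49e-05). Among 6 tested genes of inward rectifier potassium channels, 3 were higher in brain and 2 in marrow. kcnj11, which encodes the pore subunit Kir6.2 that pairs with SUR1, was at 9.18 CPM in brain and 0.175 CPM in marrow (5.65 ± 0.34), and kcnj11l at 48.6 and 0.612 CPM (6.28 ± 0.24). The marrow level of kcnj11 was near the floor, and the marrow ablation fit tested only 4 of these 6 genes. The call of kcnj11, counted among the 3, is therefore no independent support for a tissue difference. abcc5, whose human counterpart exports cyclic nucleotides and glutamate conjugates, was at 732 and 860.2 CPM in brain and 322 and 439.6 CPM in marrow (1.06 ± 0.17).

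abcc4 encodes a counterpart of MRP4, an exporter of cyclic nucleotides, prostaglandins, urate and drugs, and abcc2 a counterpart of MRP2, which secretes conjugates into bile and urine. abcc4 stood at 42.0 and 33.1 CPM in uninjured brain and 411 and 467 CPM in uninjured marrow, a log2 difference of -3.55 ± 0.15 (edgeR adjusted p = 6.56e-06). abcc2 stood at 41.4 and 33.8 CPM in brain and 306 and 311 CPM in marrow, a log2 difference of -3.04 ± 0.12. The marrow libraries of both genes lay far above every brain library. Of 29 tested genes of drug metabolism and organic ion uptake, 22 were likewise higher in marrow and 5 in brain. They included slc22a2, an organic cation transporter of kidney tubules, at 7841 CPM in marrow against 40.7 CPM in brain (-7.60 ± 0.15).

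Subfamily B held the peptide transporter genes. abcb3l1 has the symbol of a gene like ABCB3, the TAP2 subunit that carries peptides into the endoplasmic reticulum for MHC class I. It stood at 7.05 and 7.08 CPM in brain and 55.4 and 59.0 CPM in marrow, a log2 difference of -3.02 ± 0.11 (edgeR adjusted p = 4.38e-06). abcb9, a counterpart of the lysosomal peptide transporter TAPL, stood at 40.5 and 43.5 CPM in brain and 248 and 259 CPM in marrow (-2.60 ± 0.09). Peptide loading genes were 17 of 19 higher in marrow and 2 of 19 in brain, with b2m, the light chain of MHC class I, at 1191 CPM in marrow and 156 CPM in brain (-2.94 ± 0.11). abcb4, the main drug efflux pump of zebrafish embryos, was higher in marrow (-0.80 ± 0.19) and abcb8, of mitochondria, higher in brain (0.65 ± 0.13). abcb6a, whose mammalian counterpart carries porphyrins, was at 46.4 and 38.5 CPM in brain and 32.1 and 36.4 CPM in marrow and did not pass (0.30 ± 0.14, interval -0.03 to 0.64).

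Of subfamily D, abcd3a differed most. It encodes a counterpart of PMP70, a half-transporter of branched and dicarboxylic fatty acids, and stood at 66.5 and 69.8 CPM in brain against 767 and 845 CPM in marrow (-3.57 ± 0.10, edgeR adjusted p = 1.66e-06). Its duplicate abcd3b stood at 21.7 and 21.7 CPM in brain and 22.5 and 23.8 CPM in marrow and did not pass (-0.10 ± 0.11, interval -0.37 to 0.18). abcd4, which in humans helps cobalamin out of lysosomes, was higher in brain (0.39 ± 0.13). Of 24 tested genes of peroxisomal import and fatty acid oxidation, 14 were higher in marrow and 8 in brain. The oxidation enzyme gene ehhadh showed the same side as abcd3a, at 1048 CPM in marrow and 6.05 CPM in brain (-7.44 ± 0.13).

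The sterol exporters of subfamilies A and G fell on both sides. abca1a, whose mammalian counterpart loads cholesterol onto apolipoprotein A-I, stood at 188 and 225 CPM in brain and 321 and 516 CPM in marrow (-1.02 ± 0.23), and abca1b at 24.9 and 24.0 and 34.5 and 66.9 CPM (-1.06 ± 0.30). For both genes every marrow library was above every brain library, but the marrow libraries differed among themselves by over 1.5-fold. abcg1, which passes cholesterol on to lipoproteins, was higher in brain, at 18.9 and 18.6 CPM against 2.33 and 4.51 CPM (2.45 ± 0.30). Its relative abcg4b, known in the mammalian brain, stood at 6.99 and 8.47 CPM in brain and 1.75 and 2.22 CPM in marrow (1.95 ± 0.24). abca5, a lysosomal member, was higher in brain (1.23 ± 0.22), and abca4a, the counterpart of a retinal flippase, higher in marrow (-2.08 ± 0.24). Of 17 tested genes of apolipoproteins and sterol control, 11 were higher in marrow, led by apoa2 (-7.70), and 5 in brain, led by the phospholipid transfer protein gene pltp (4.95).

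ABCG5 and ABCG8 work as a pair in mammals, secreting sterols into bile and gut, and their zebrafish genes are neighbours in the RefSeq gene order of GRCz12tu with 0 genes between them. abcg8 had 1 and 4 reads in the uninjured brain libraries and 56 and 59 in the uninjured marrow libraries. Summed and scaled for depth, the marrow level was 22.0 times that of brain, with a 95% Clopper-Pearson counting interval of 9.18 to 69.2 that covers counting error only (edgeR adjusted p = 0.000479). abcg5 had at most 1 read in each of these 8 libraries and gave no comparison. abcg2d was the reverse of abcg8, with 19 and 24 reads in brain and 3 and 2 in marrow, a brain level 8.97 times that of marrow (counting interval 3.56 to 29, edgeR adjusted p = 0.00241). Each passed the low-count filter here only through the tissue where it was higher. abcg8 failed it in the brain fit and abcg2d in the marrow fit. Their calls, counted among the 14 and the 9, are therefore no independent support for a tissue difference. abcg2d is 1 of 4 copies related to ABCG2, the breast cancer resistance protein that exports drugs and urate. Of the other copies, abcg2a was higher in marrow, at 19.6 and 17.3 CPM in brain and 25.7 and 24.9 CPM in marrow (-0.46 ± 0.12), and abcg2c did not pass (-0.21 ± 0.14, interval -0.56 to 0.13). The sources used here do not state how counting divided reads between near-identical copies, so the split between duplicates is uncertain.

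The members that act in translation differed between the tissues by less than 1 on the log2 scale. abce1, the ATPase that splits ribosomes after termination, stood at 94.7 and 96.1 CPM in brain and 151 and 166 CPM in marrow (-0.74 ± 0.09). abcf1, which works with the initiation factor eIF2, stood at 107 and 112 CPM in brain and 147 and 149.5 CPM in marrow (-0.45 ± 0.08). Both were higher in marrow, as were 10 of 18 tested genes of ribosome recycling and Gcn2 control, with 4 higher in brain. abcf2a stood at 149 and 150.1 CPM in brain and 160.0 and 123 CPM in marrow, where its libraries enclosed those of brain (0.07 ± 0.14, interval -0.27 to 0.42). With either uninjured brain library left out, 1 remained in that group, and fewer members passed, as did fewer of all genes. The calls of abca1b, abcd4, abcf1 and abcg2a ended under both omissions. The call of abca1a ended without uninjured brain replicate 1 and that of abcb4 without replicate 2. abcf2a passed without uninjured marrow replicate 1 and abcb6a without replicate 2. These omissions left 1 library in the group, and more of all genes passed too. DESeq2 did not call abcd4, and it called 73.2% of all genes against 78.1% by edgeR.

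**Figure D2:**
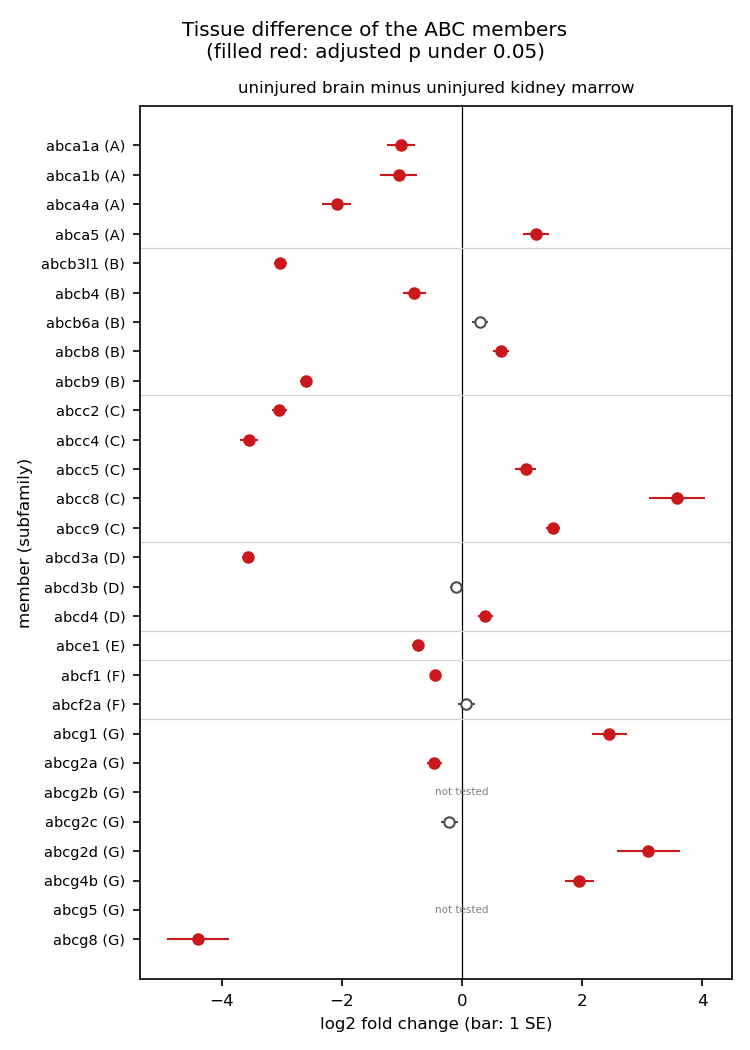
Log2 fold change of each reported ABC member between uninjured brain and uninjured kidney marrow, positive where brain is higher, with bars of 1 SE; filled red points passed an adjusted p of 0.05. Of the members drawn, 9 are filled to the right of 0 and 13 to the left, from abcg8 at -4.40 to abcc8 at 3.58. abcg8 and abcg2d passed the low-count filter only through the tissue where they are higher.

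In the brain abcc4 was the 1 member that passed the test between ablated and uninjured fish. It stood at 81.1 and 70.8 CPM in ablated and 42.0 and 33.1 CPM in uninjured brain. Every ablated library was above every uninjured one. The fold change was 1.01 ± 0.10 on the log2 scale, with a 95% interval of 0.78 to 1.24 (n = 2 each, edgeR adjusted p = 0.00377), which ranked 3 among all genes by p. The other 25 of 26 members tested did not pass, and over all 12371 genes 0.453% passed in either direction, 0.283% higher and 0.17% lower. In bulk tissue a change in the number of cells of a type and a change of RNA per cell cannot be told apart.

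The call of abcc4 held in 9 of 10 alternatives and ended in the fit over all 8 libraries, marrow included. There the value was again 1.01 with an edgeR adjusted p = 0.633, and adjusted p-values ran from 9.18e-43 to 0.633 over the alternatives. Leaving out 1 library at a time kept the log2 fold change between 0.85 and 1.19. In mammals ABCC4 is found on brain endothelium and choroid plexus. Of 14 endothelial markers in the brain fit, cldn5b (1.29) and fli1a (0.56) rose and slc2a1a, the glucose transporter of the barrier, fell (-0.49), with 8 of 14 above 0 and none of the 14 at 0 reads. Their summed level was 443 to 461 CPM after ablation, against 469.9 to 472 CPM in uninjured fish, and their part in the abcc4 result was not tested.

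abca1a, the cholesterol exporter gene, lay just outside the threshold. It stood at 285 and 266 CPM in ablated and 188 and 225 CPM in uninjured brain. The groups did not overlap, and the log2 fold change was 0.41 ± 0.08 with an interval of 0.24 to 0.58 (edgeR adjusted p = 0.0513). It passed in 7 of 10 alternatives, among them DESeq2, where 0.534% of all genes passed, and the edgeR or DESeq2 adjusted p ran from 1.23e-12 to 1 over them. Several of these alternatives omit a library, which leaves 1 in its group, and calls over all genes moved with them. The log2 fold change of abca1a ran from 0.29 (without uninjured replicate 1) to 0.55 over the alternatives. Its duplicate abca1b stood at 29.1 and 26.9 against 24.9 and 24.0 CPM (0.19 ± 0.09, edgeR adjusted p = 0.745). abcg1 was at 25.7 and 18.1 against 18.9 and 18.6 CPM (0.21 ± 0.15), where ablated replicate 1 stood apart from the other 3 libraries. Among single omissions the abcg1 call moved only when ablated replicate 2 was left out. That fit kept just the high library in its group and called more of all genes, so no result is read from it. abcg4b lay the other way, at 4.67 and 5.55 CPM after ablation, against 6.99 and 8.47 CPM in uninjured fish, again with no overlap (-0.59 ± 0.17, edgeR adjusted p = 0.332).

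Among the 16 tested genes of apolipoproteins and sterol control 1 passed in brain. lpl, the lipoprotein lipase gene, rose by 1.01 ± 0.15 from 13.3 to 27.1 CPM (edgeR adjusted p = 0.0149). srebf2, the master regulator of cholesterol synthesis, stood at -0.29 ± 0.06 and did not pass (edgeR adjusted p = 0.0873). nr1h3, which encodes the sterol sensor LXR that turns on ABCA1 and ABCG1 in mammals, stood at -0.05 ± 0.07. In the list as a whole 8 of 16 lay above 0, with a median of 0.03, beside a median of -0.0013 over all genes.

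The remaining members did not pass in brain. abcg2a, the drug exporter, stood at 24.8 and 23.8 CPM after ablation, against 19.6 and 17.3 CPM in uninjured fish. Its groups did not overlap, at a log2 fold change of 0.40 ± 0.10 (edgeR adjusted p = 0.202). abcb4, the other main drug pump, stood at 34.2 and 28.3 against 31.6 and 23.4 CPM with overlapping libraries (0.17 ± 0.13). abcc2 stood at 43.8 and 42.5 CPM after ablation, against 41.4 and 33.8 CPM in uninjured fish (0.20 ± 0.09, edgeR adjusted p = 0.756). abcc9, the SUR2 gene, stood at 55.3 and 50.7 CPM with ablation and 51.8 and 52.8 CPM in uninjured fish (0.02 ± 0.07, interval -0.14 to 0.18), and abcc5 at 843 and 878 against 732 and 860.2 CPM (0.11 ± 0.07). abcc8 stood at -0.02. Of the drug metabolism and organic ion uptake genes 0 of 27 passed by edgeR and 3 had an unadjusted p under 0.05.

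No member of subfamilies B, D, E and F passed in brain. abcf2a, an ATPase without membrane domain, stood at 126 and 136 CPM in ablated and 149 and 150.1 CPM in uninjured brain, without overlap (-0.19 ± 0.06, edgeR adjusted p = 0.367). abcb3l1 stood at 5.46 and 5.80 against 7.05 and 7.08 CPM (-0.32 ± 0.16) and abcb8 at 19.8 and 20.9 against 22.5 and 22.7 CPM (-0.15 ± 0.09). abce1, the ribosome recycling factor, was nearly level at 95.0 and 95.5 CPM after ablation, against 94.7 and 96.1 CPM in uninjured fish (-0.00309 ± 0.06, interval -0.13 to 0.13). abcd3a, of peroxisomes, stood at 66.2 and 66.0 against 66.5 and 69.8 CPM (-0.05 ± 0.07), and abcd3b and abcd4 stood at -0.03 and 0.00156. abcb6a stood at 45.5 and 39.8 against 46.4 and 38.5 CPM (-0.000152 ± 0.10), and abcf1, abcb9, abca5, abcg2c and abcg2d ran from -0.19 to 0.04. abca4a stood at 2.04 and 1.56 against 2.41 and 1.96 CPM (-0.30 ± 0.28). Photoreceptor and pineal markers were 1 of 12 above 0 with none at 0 reads, summing to 64.5 to 153 CPM after ablation, against 131 to 202 CPM in uninjured fish, and their part in the abca4a value was not tested.

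Over the 26 members, 12 lay above 0 and the median log2 fold change was -0.0016. Groups did not overlap for 5 members in the higher and 7 in the lower direction, where 18.4% and 17.7% of all genes did so, 36.1% in either direction. By an unadjusted p under 0.05 there were 5 members, abcc4, abca1a and abcg2a higher and abcf2a and abcg4b lower, where 6.85% of all genes had such a p.

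**Figure D3:**
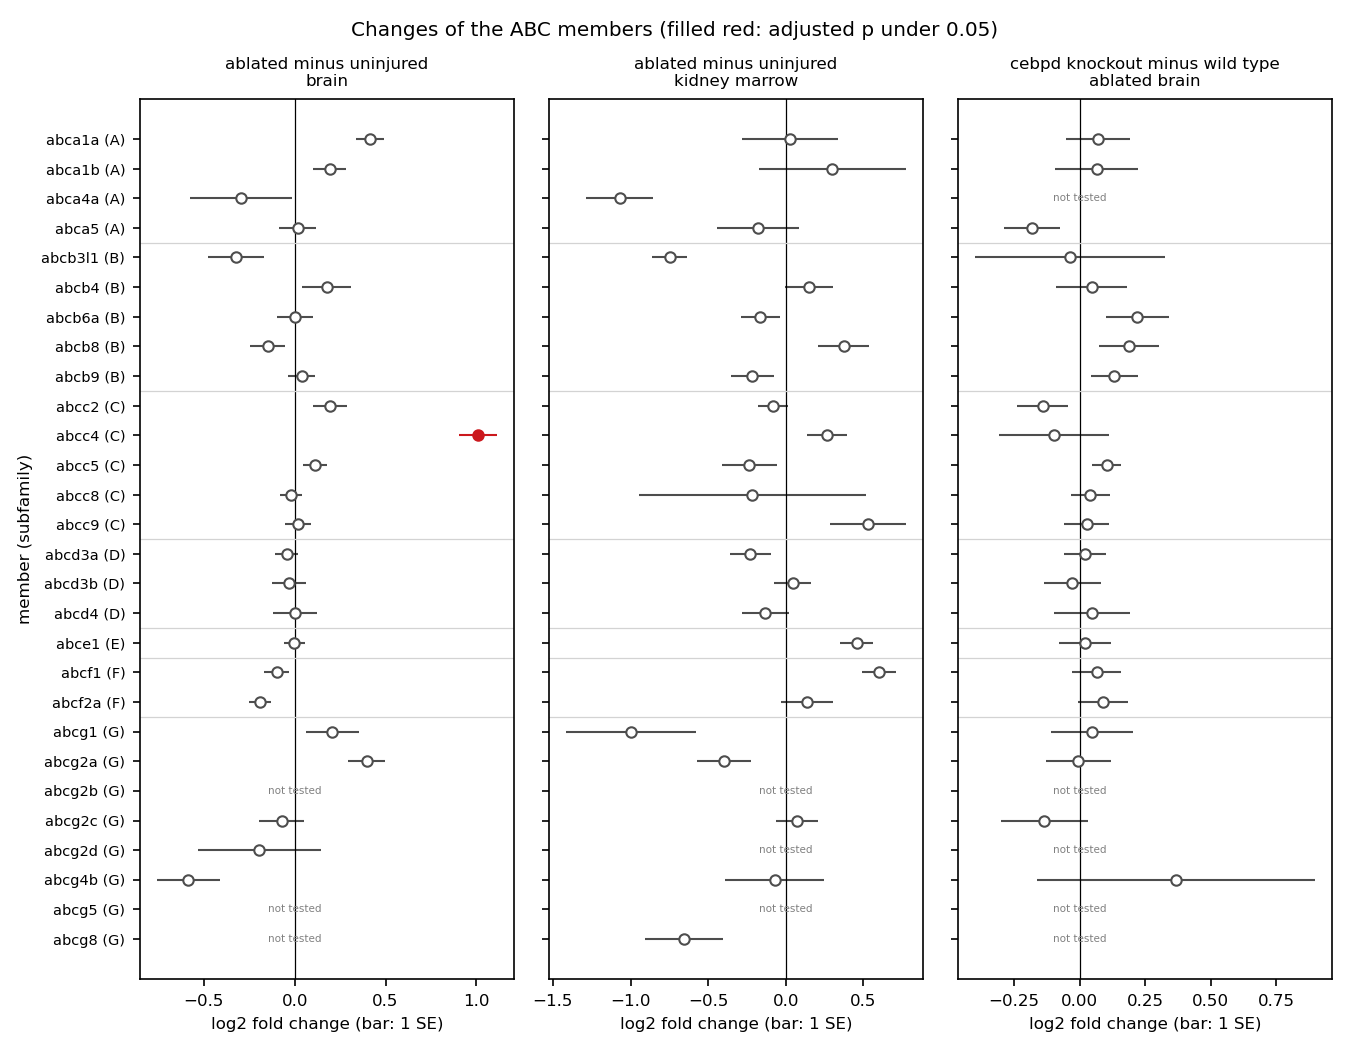
Log2 fold change of each reported ABC member in 3 comparisons, with bars of 1 SE: ablated minus uninjured brain, ablated minus uninjured kidney marrow, and cebpd knockout minus wild type ablated brain. Horizontal scales differ between panels; the 1 filled red point, abcc4 in brain at 1.01, passed an adjusted p of 0.05, and members that failed the low-count filter are marked as not tested.

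In kidney marrow no ABC member passed the test between ablated and uninjured fish, and neither did any other gene. edgeR called 0 of 26 members, beside 0% of all 12160 genes tested, while 5 members had an unadjusted p under 0.05. DESeq2 called 3 members and 4.99% of all genes, and a fit over all 8 libraries called 4 members and 10.3% of all genes. Libraries did not overlap for 5 members in the higher and 11 in the lower direction, where 23.5% and 29.4% of all genes did so, 53% in either direction. Of all genes 19.6% had an unadjusted p under 0.05. The median log2 fold change was -0.11 over the members and -0.0088 over all genes. The 5 members with such a p were abcf1 and abce1, higher, and abcb3l1, abca4a and abcg8, lower.

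abcf1 and abce1, of translation, lay higher after ablation. abcf1 stood at 204 and 231 CPM in ablated and 147 and 149.5 CPM in uninjured marrow. The groups did not overlap, and the fold change was 0.60 ± 0.11 on the log2 scale (n = 2 each, edgeR adjusted p = 0.0999). abce1 stood at 214 and 206 CPM after ablation, against 151 and 166 CPM in uninjured fish, also without overlap (0.46 ± 0.11, edgeR adjusted p = 0.126). DESeq2 called abcf1, and a fit over all 8 libraries called both. Adjusted p-values over the alternatives ran from 0.00766 to 0.333 for abcf1 and from 0.0143 to 0.438 for abce1. abcf2a stood at 163 and 138 against 160.0 and 123 CPM, with overlapping libraries (0.14 ± 0.17).

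Other genes of ribosome recycling and Gcn2 control were 17 of 18 above 0 in marrow, with a median of 0.19 and 6 at an unadjusted p under 0.05, none of which passed after adjustment. They included pelo, the partner of ABCE1 in rescuing stalled ribosomes, at 35.8 CPM after ablation, against 21.1 CPM in uninjured fish (0.81 ± 0.13, edgeR adjusted p = 0.0945). eif2s2, a subunit of the factor that ABCF1 binds, had a value of 0.56 ± 0.11 (edgeR adjusted p = 0.102). In brain the same list had 10 of 18 above 0 and a median of 0.0014. In marrow 5963 of all 12160 genes lay above 0 and 19.6% had an unadjusted p under 0.05, the background for each marrow list.

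abcb3l1, the gene like TAP2, lay lower after ablation. It stood at 31.5 and 34.3 CPM in ablated and 55.4 and 59.0 CPM in uninjured marrow, with no overlap (-0.75 ± 0.11, interval -1.03 to -0.47, edgeR adjusted p = 0.0859). DESeq2 and the fit over all 8 libraries called it, and its adjusted p ran from 0.00153 to 0.345 over the alternatives. Of 20 tested genes of peptide loading, 4 were above 0, and 9 lower and 3 higher ones had an unadjusted p under 0.05. Lower in value were the MHC class I light chain gene b2m (-0.52 ± 0.11), the class I gene mhc1uka (-0.55 ± 0.10) and the immunoproteasome gene psmb8a (-0.36 ± 0.10), while calr (0.74 ± 0.14) and pdia3 (0.42 ± 0.11), general chaperones of the endoplasmic reticulum, were higher. None of the 20 passed after adjustment. Lymphocyte markers were 0 of 7 above 0, with a summed level of 32.4 to 32.9 CPM after ablation, against 48.2 to 52.2 CPM in uninjured fish and none at 0 reads, and their part in the abcb3l1 value was not tested. abcb9, the lysosomal peptide transporter, stood at 187 and 235 against 248 and 259 CPM (-0.22 ± 0.14).

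Of subfamily A, 2 of 4 members lay above 0 in marrow, and no member of A or G passed by edgeR. abca4a stood at 4.46 and 4.06 CPM in ablated and 8.09 and 10.4 CPM in uninjured marrow, the farthest of the members from 0 (-1.07 ± 0.21, edgeR adjusted p = 0.109). DESeq2 and the fit over all 8 libraries called it (adjusted p 0.0236 to 0.361 over the alternatives). abcg8 had 31 and 43 reads after ablation and 56 and 59 without (-0.66 ± 0.25, edgeR adjusted p = 0.249), and abcg1 stood at 1.40 and 1.88 against 2.33 and 4.51 CPM (-1.0, SE 0.42, edgeR adjusted p = 0.276). abcg2a, the drug exporter, was at 15.8 and 21.2 CPM after ablation, against 25.7 and 24.9 CPM in uninjured fish (-0.40 ± 0.17). abca1a showed no separation, at 319 and 505 CPM after ablation, against 321 and 516 CPM in uninjured fish (0.03 ± 0.31, interval -0.76 to 0.81). In each group replicate 2 of abca1a was over 1.5 times replicate 1. abca1b stood at 36.7 and 83.7 against 34.5 and 66.9 CPM (0.30 ± 0.47). Hepatocyte markers, from an organ in which mammalian ABCG5 and ABCG8 act, were 8 of 12 above 0 in marrow with none at 0 reads and summed to 589 to 863 CPM with ablation and 464 to 542 CPM in uninjured fish, and their part in the abcg8 value was not tested. lpl stood at 26.8 against 48.8 CPM (-0.81 ± 0.18, edgeR adjusted p = 0.122).

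In subfamily C, abcc4 stood at 472 and 549 CPM in ablated and 411 and 467 CPM in uninjured marrow. The libraries did not overlap but the nearest lay close together (0.27 ± 0.13, interval -0.07 to 0.60, edgeR adjusted p = 0.334). Thrombocyte markers, from cells whose mammalian counterparts carry ABCC4, were 5 of 5 above 0 with none at 0 reads and summed to 346 to 365 CPM with ablation and 211 to 230.3 CPM in uninjured fish, and their part was not tested. abcc2 stood at 284 and 279.9 CPM after ablation, against 306 and 311 CPM in uninjured fish (-0.08 ± 0.10). Nephron markers were 4 of 13 above 0 with none at 0 reads, and summed to 7993 to 9506 CPM after ablation, against 10251 to 11279.9 CPM in uninjured fish. Their part in the values of these tubule exporters was not tested. Among genes of drug metabolism and organic ion uptake, 8 of 30 were above 0, and 7 lower and 3 higher ones had an unadjusted p under 0.05, such as slc22a2 (-0.61 ± 0.12, edgeR adjusted p = 0.0999).

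abcc9, of potassium channels, stood at 31.3 and 19.7 CPM in ablated and 19.3 and 17.2 CPM in uninjured marrow. Ablated replicate 1 set most of the difference (0.53 ± 0.24, edgeR adjusted p = 0.309), and the log2 fold change was 0.16 without that library and 0.83 without ablated replicate 2. kcnj8 encodes Kir6.1, the pore that ABCC9 serves in mural cells, and stood at 4.37 CPM after ablation, against 1.98 CPM in uninjured fish (1.18 ± 0.36, edgeR adjusted p = 0.182). Mural markers, kcnj8 among them, were 5 of 6 above 0 and summed to 746 to 758 against 549 to 589 CPM, and the defining marker pdgfrb was at 0 reads in all 14 libraries. Endothelial markers were 11 of 14 above 0 and summed to 1460.2 to 1961 against 927 to 985 CPM. That sum rose largely through stab2, from 68.4 to 554 CPM, and stab1, from 284 to 493 CPM. Those below 0 were kdrl (-0.07), tek (-0.09) and esama (-0.13), and pecam1 stood at 0.02. The part of mural and endothelial cells in the abcc9 value was not tested.

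No mitochondrial or peroxisomal member passed in marrow. abcb8, which in mammals takes part in iron export from mitochondria, stood at 19.8 and 16.1 CPM after ablation, against 13.4 and 15.3 CPM in uninjured fish (0.37 ± 0.17), and abcb6a at 30.7 and 28.4 and 32.1 and 36.4 CPM (-0.16 ± 0.12). Genes of haem and iron-sulphur handling were 16 of 24 above 0 with a median of 0.35, and 9 of them had an unadjusted p under 0.05, all higher. urod, an enzyme of haem synthesis, stood at 206 against 95.0 CPM (1.17 ± 0.19, edgeR adjusted p = 0.0949). Erythroid markers were 9 of 9 above 0, summing to 7711 to 12856 CPM after ablation, against 6421 to 9495 CPM in uninjured fish, and their part was not tested. abcd3a stood at 608 and 721 against 767 and 845 CPM (-0.23 ± 0.13), and 8 of 24 peroxisomal genes were above 0, with ehhadh at -0.52 ± 0.10. abcd3b, abcd4, abca5, abcb4, abcc5, abcc8, abcg2c and abcg4b ran from -0.23 to 0.15.

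The test of whether the response to ablation differed between brain and marrow found no member past the threshold. edgeR called 0 of 27, where 0.26% of all 13077 genes passed, 0.0382% with the larger value in brain and 0.222% in marrow. DESeq2 called 2 members, abcc4 and abcf1, and 2.02% of all genes. By edgeR 7 members had an unadjusted p under 0.05, where 16% of all genes had one. For abcf1 the response in brain minus that in marrow was -0.69 ± 0.13 (edgeR adjusted p = 0.0772, 0.0142 to 0.340 over the alternatives). Its log2 fold change was -0.10 in brain and 0.60 in marrow. For abce1 the difference was -0.45 ± 0.11 (edgeR adjusted p = 0.116), from -0.00309 in brain and 0.46 in marrow. abcc4 lay the other way, with 0.75 ± 0.20 more in brain (interval 0.29 to 1.21, edgeR adjusted p = 0.131, 0.0223 to 0.419 over the alternatives). Its level in marrow was already over 10 times that in brain, and the log2 values compare ratios, not CPM. The interaction fit pools the spread of all 8 libraries. The common coefficient of variation was 5.56% in the brain fit and 16.5% in the marrow fit. In the fit over all 8 libraries the brain change of abcc4 did not pass either (edgeR adjusted p = 0.633). The absence of a call therefore does not show that the responses were alike. abcc9 stood at 0.02 in brain and 0.53 in marrow (-0.50 ± 0.27, edgeR adjusted p = 0.420).

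abcg2a had opposite signs in the tissues, at 0.40 in brain and -0.40 in marrow, a difference of 0.80 ± 0.21 (edgeR adjusted p = 0.131). abcg1 did so too, at 0.21 and -1.0 (1.2, SE 0.44, edgeR adjusted p = 0.249), and abcb8 in reverse, at -0.15 and 0.37 (-0.52 ± 0.18, edgeR adjusted p = 0.238). abcb3l1 had the same sign in both tissues, -0.32 and -0.75 (0.43 ± 0.15, edgeR adjusted p = 0.230). None of these 4 differences passed. Of the genes listed as partners of the members, 1 passed: the glutathione transferase gene gstr stood at 0.10 in brain and -0.62 in marrow, a difference of 0.72 ± 0.10 (edgeR adjusted p = 0.0462). lpl stood at 1.01 in brain and -0.81 in marrow and lay just outside (1.83 ± 0.28, edgeR adjusted p = 0.0523).

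**Figure D4:**
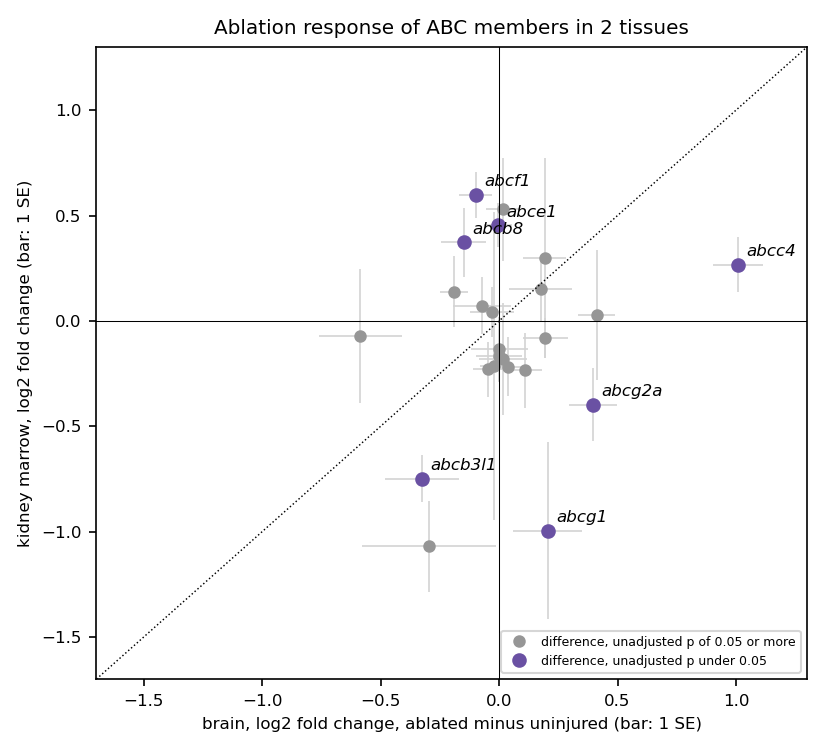
Log2 fold change after ablation in brain (horizontal axis) and kidney marrow (vertical axis) of each reported ABC member tested in both tissues, with bars of 1 SE. Points on the dotted diagonal would respond alike; the 7 named purple points had an unadjusted p under 0.05 for the difference between tissues, and none passed after adjustment. abcc4 lies far to the right and abcf1 and abce1 lie high near the vertical axis.

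The cebpd comparison asks whether the members depend on cebpd, a C/EBP transcription factor gene, in the ablated brain. cebpd itself stood at 49.1, 78.1 and 41.5 CPM in wild type and at 1.3, 3.05 and 0.908 CPM in knockout brain. No member passed the test. edgeR called 0 of 24 members, DESeq2 called 0 where it called 0.45% of all genes, and 0 had an unadjusted p under 0.05 by edgeR, where 0.135% of all 11103 genes passed, 0.036% higher and 0.0991% lower in the knockout, and 8.5% had such a p. Log2 fold changes of the members reported ran from -0.18 to 0.37 and over all 24 tested the median was 0.04 and 16 lay above 0.

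abcc4, which rose with ablation in the other experiment, stood at 42.5, 101 and 66.1 CPM in wild type and 68.1, 72.6 and 57.4 CPM in knockout brain. Wild type replicates 1 and 2 were the lowest and the highest of the 6 libraries and enclosed the knockout ones. The fold change was -0.10 ± 0.21 on the log2 scale, with an interval of -0.55 to 0.36 (n = 3 each, edgeR adjusted p = 0.951). The cebpd experiment had no uninjured library. Whether abcc4 rose with ablation there, and whether such a rise depends on cebpd, was not tested. Without wild type replicate 2 the sign turned, to 0.25. abca1a stood at 440.0, 633 and 433 CPM in wild type and 596, 506 and 487 CPM in knockout brain, with overlap (0.07 ± 0.12, interval -0.20 to 0.34). lpl and the other 12 tested genes of apolipoproteins and sterol control did not pass.

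Libraries did not overlap for 2 members, both higher in the knockout, where 7.76% of all genes did so in the higher and 6% in the lower direction, 13.8% in either. abcb8 stood at 21.0, 24.5 and 22.5 CPM in wild type and 25.4, 26.3 and 26.3 CPM in knockout brain (0.19 ± 0.12, edgeR adjusted p = 0.717). abcc5 stood at 977, 939 and 988 CPM in wild type and 1004, 1086 and 1044 CPM in knockout brain (0.10 ± 0.06, edgeR adjusted p = 0.662). Both intervals included 0, at -0.06 to 0.44 and -0.02 to 0.22. Also among the smallest p in the higher direction were those of abcb6a and abcb9. abcb6a stood at 25.7, 36.5 and 31.4 CPM in wild type and 37.7, 36.4 and 36.0 CPM in knockout brain (0.22 ± 0.12). abcb9 stood at 43.4, 46.6 and 45.7 CPM in wild type and 46.4, 52.0 and 51 CPM in knockout brain (0.13 ± 0.09). The libraries of both overlapped. In the lower direction the smallest p among those reported belonged to abca5, abcc2 and abcg2c. abca5 stood at 81.6, 90.1 and 65.3 CPM in wild type and 69.7, 67.3 and 71.9 CPM in knockout brain (-0.18 ± 0.11). abcc2 stood at 39.9, 43.9 and 45.5 CPM in wild type and 36.9, 39.5 and 41.8 CPM in knockout brain (-0.14 ± 0.10). In both genes the genotypes overlapped. abcg2c stood at 13.7, 10.7 and 14.1 CPM in wild type and 11.9, 12.0 and 11.4 CPM in knockout brain (-0.14 ± 0.17). Its genotypes overlapped too. abcc9 stood at 75.3, 67.6 and 63.6 CPM in wild type and 68.3, 73.2 and 69.0 CPM in knockout brain, with an interval of -0.16 to 0.21. The members not named here ran from -0.04 to 0.09. abcg2a, the drug exporter, had an interval of -0.27 to 0.26 around -0.00486.

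The widest interval belonged to abcg4b, at 1.65, 2.27 and 2.54 CPM in wild type and 0.556, 2.71 and 5.27 CPM in knockout brain, where knockout replicates held both the lowest and the highest level (0.37 ± 0.53, interval -0.78 to 1.51). abca4a failed the low-count filter, with 2, 7 and 5 reads in wild type and 8, 13 and 6 in knockout libraries. Photoreceptor and pineal markers were 11 of 11 above 0 in the knockout, 10 of them at an unadjusted p under 0.05. They summed to 23.4, 196 and 199.8 CPM in wild type and 374, 456 and 278 CPM in knockout brain. Wild type replicate 1 lay far below the other libraries. Their part in the abca4a reads was not tested.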

How the data were processed

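Deposited values were counts: whole reads per gene symbol for 14781 genes, with 5 summary lines per library that were left out. Per the submitters' processing notes, which list tools for both assays together, the build was danRer10 and the tools included HTSeq 1.6.1, TopHat2 2.1.1 and Trim Galore (0.6.4 and 0.4.1), with no role given for each. The sources used here do not state the annotation, strand setting or multi-mapping rule. Reads assigned to no feature took 56.6% to 58.3% of each brain library and 37.4% to 41.5% of each marrow library. This difference goes with tissue, and its part in the comparison of the uninjured tissues was not tested. The 14 RNA libraries were used, and the 10 ATAC libraries of the 24 samples were not analysed here.

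Each of 5 comparisons was fitted over all genes in R 4.3.3 with edgeR 4.0.16 (filterByExpr, TMM, glmQLFit, glmQLFTest) on the groups compared, without a replicate block; the tissue difference of the response was an interaction over 8 libraries. SE came from the F statistic, intervals are 95%. Alternatives were RLE, DESeq2 1.42.0, no filter, a mean count of at least 50, omission of each library, a replicate block and a fit over 8 libraries. The fits were tested on simulated data with a common spread for all genes. Of simulated log2 changes of 1, the brain fit recovered 97%, the marrow fit 73% and the cebpd fit 98%. The interaction fit recovered 61% and the fit between uninjured tissues 89%. These shares do not give the power of the fits on the real libraries, where genes differ in spread. In marrow the simulation recovered 100% of log2 changes of 2. The real marrow fit called no gene, not even the endothelial marker stab2 at 3.07 ± 0.30 (edgeR adjusted p = 0.0740).

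Members, 7 partner lists (145 of 172 entries in the files) and 13 marker lists (124 of 149) were chosen with earlier results of these data known. All 29 members enter the fits and counts, and the values of 1 are not reported here. Full values go to abcc4, abcc9, members past the threshold, the 4 with the smallest p per direction of each response fit, the 4 with the largest tissue difference per direction, and the member with the highest mean CPM of each subfamily per tissue. abcg1 in brain, and listed genes such as srebf2 that are named without passing, were chosen after their values were seen. Gene order came from GRCz12tu (28 of 29 members matched by symbol); no coordinates are printed.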

Additional observations from a re-analysis of the deposited data

How the results depend on the processing

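The number of members called in brain was 1 and became 2 with RLE size factors, 2 with DESeq2 and 2 without a low-count filter, where abca1a joined abcc4 and 0.461%, 0.534% and 0.585% of all genes were called. When a library was left out abcc4 stayed called, and other members joined it in some omissions. Calls over all genes rose without either ablated library or uninjured replicate 1, and fell without uninjured replicate 2. No member was called in the fit over all 8 libraries, which called 1 gene of 13077. In marrow 0 members were called by edgeR, 3 by DESeq2 (abca4a, abcb3l1, abcf1; 4.99% of all genes), 4 in the fit over all 8 libraries, where abce1 joined (10.3% of all genes), and 0 when any library was left out. For the tissue difference of the response DESeq2 called 2 (2.02% of all genes), and edgeR 0 in every setting run. In the cebpd fit 0 members were called in every setting. Between uninjured tissues 9 members were called higher in brain and 14 in marrow, beside 78.1% of all genes in either direction. The number of members moved with the setting. Where every library was kept, 72.4% (no low-count filter) to 80% (fit over all 8 libraries) of all genes were called. Fewer members and fewer of all genes passed with either uninjured brain library left out. The cause of these moves was not tested.

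With the replicate number as a block 5 members were called in brain, abcc4, abca1a and abcg2a higher and abcf2a and abcg4b lower, and 2 in marrow, abcb3l1 and abcf1, while calls over all genes went from 0.453% to 2.89% in brain and from 0% to 4.92% in marrow. The block changed no other count of members. The labels do not say that numbers pair libraries, and same-numbered libraries correlated in their deviations at 0.0185 in brain and 0.150 in marrow, and at -0.059, -0.014 and -0.051 in the cebpd experiment.

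Single-member values were recomputed for the members picked by the naming rule in each comparison, and among these 4 omissions turned a sign, none of a called value. Signs of other members were not followed. With each library left out in turn, abcc9 in brain ran from -0.045 (without ablated replicate 1) to 0.083. In the cebpd fit abcc4 ran from -0.34 to 0.25 (without wild type replicate 2). abcc9 there ran from -0.032 to 0.094 and turned negative without wild type replicate 3 and, at -0.0066, without knockout replicate 2. Depth limits abcg2b, abcg5, abcg2d, abcg8 and abca4a most.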

Other observations

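Ablated wild type brain was sequenced in both experiments, so the same label can be set side by side after joint TMM scaling of the 10 brain libraries. Most members were at like levels between the experiments. Of 23 with a mean of at least 50 reads, 2 (8.7%) lay beyond 2-fold, beside 6.07% of 9819 genes with such a mean. abcb3l1 was at 0.405 times and abcg4b at 0.359 times the level of the ablation experiment. Both rest on few reads in the cebpd wild type libraries, 12, 16 and 12 for abcb3l1 and 7, 11 and 16 for abcg4b. abca1a was at 1.55 times, a mean of 484 CPM against 311 CPM, which exceeds its difference between ablated and uninjured brain. abcc4 was at 0.785 times. The experiments differ in depth, and what else differed between them is not given in the sources used here, so these values are descriptions with no test.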
